A study of Homo sapiens with 10 samples.

Results

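The comparison set cells overexpressing hcRED against mock cells, the 2 kinds of control in a study of the kinases BRSK1 and BRSK2, and used 4 of its 10 RNA-seq libraries. All libraries came from HEK293T, a transformed human embryonic kidney line grown in DMEM with 10% FBS. The members were chosen by their labels, with earlier results of these data known. They were hcRED replicates 1 and 3, collected after 24 h of overexpression, and Mock replicates 2 and 3. For Mock the labels give neither a time nor what the cells received. The other 6 libraries, 3 with overexpressed BRSK1 and 3 with overexpressed BRSK2, also after 24 h, entered the fit to share its estimate of spread. hcRED is a far-red fluorescent protein derived from a sea anemone, and such a protein serves as a control because it has no known function in human cells. Neither the means of delivery nor the promoter is stated in the labels. The hcRED and Mock groups can therefore differ in more than the fluorescent protein, and the parts of that difference cannot be told apart.

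Forced expression of a foreign protein is known to touch several systems of a cell. Double-stranded RNA and cytosolic DNA are read by sensors such as RIG-I and cGAS, which switch on interferon genes. Misfolded protein in the cytosol releases HSF1 and its heat shock genes, and misfolded protein in the endoplasmic reticulum activates IRE1, PERK and ATF6, whose targets make up the unfolded protein response. HEK293T cells carry viral proteins that bind p53, so p53 target genes are known to respond weakly in this line.

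Between hcRED and Mock cells, 5 of 16936 tested genes passed an adjusted p of 0.05 (0.0295%), with 1 higher in hcRED cells (0.0059%) and 4 lower (0.0236%). The higher gene was TP53INP1, a stress-induced p53 target that takes part in autophagy. The lower genes were NEFM, which encodes the medium neurofilament chain, ARHGAP22, which encodes a GTPase-activating protein for Rac, and RP6-24A23.7 and RP6-24A23.8, a pair of transcripts next to IRS4 on the X chromosome. No fold change among these 5 reached 2-fold, a size that 396 tested genes reached upward (2.34%) and 194 downward (1.15%). The test was edgeR's quasi-likelihood F test with Benjamini-Hochberg adjustment, fitted on all 10 libraries. An adjusted p under 0.1 was reached by 16 genes (0.0945%), 5 higher (0.0295%) and 11 lower (0.065%), and 1516 genes had an unadjusted p under 0.05 (8.95%). The same test called 1133 genes for BRSK1 against Mock (6.69%) and 931 for BRSK2 against Mock (5.5%), comparisons that share the Mock libraries. Against hcRED it called 133 genes for BRSK1 (0.785%) and 606 for BRSK2 (3.58%). Each kinase contrast set 3 libraries against 2, and hcRED against Mock set 2 against 2, so these counts do not compare directly. The count of calls depended on single libraries: none was made without hcRED replicate 3 (704 genes at an unadjusted p under 0.05) or without Mock replicate 3 (1090 genes). Without hcRED replicate 1 there were 16 calls, without Mock replicate 2 there were 9, and without BRSK2 replicate 1 there were 49. Leaving out BRSK1 replicate 2, BRSK1 replicate 3 or BRSK2 replicate 3 left 2 calls each, and leaving out BRSK2 replicate 2 left 3. In a fit of the 4 hcRED and Mock libraries alone no gene was called, with 1530 at an unadjusted p under 0.05, while DESeq2 called 54.

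**Figure D1:**
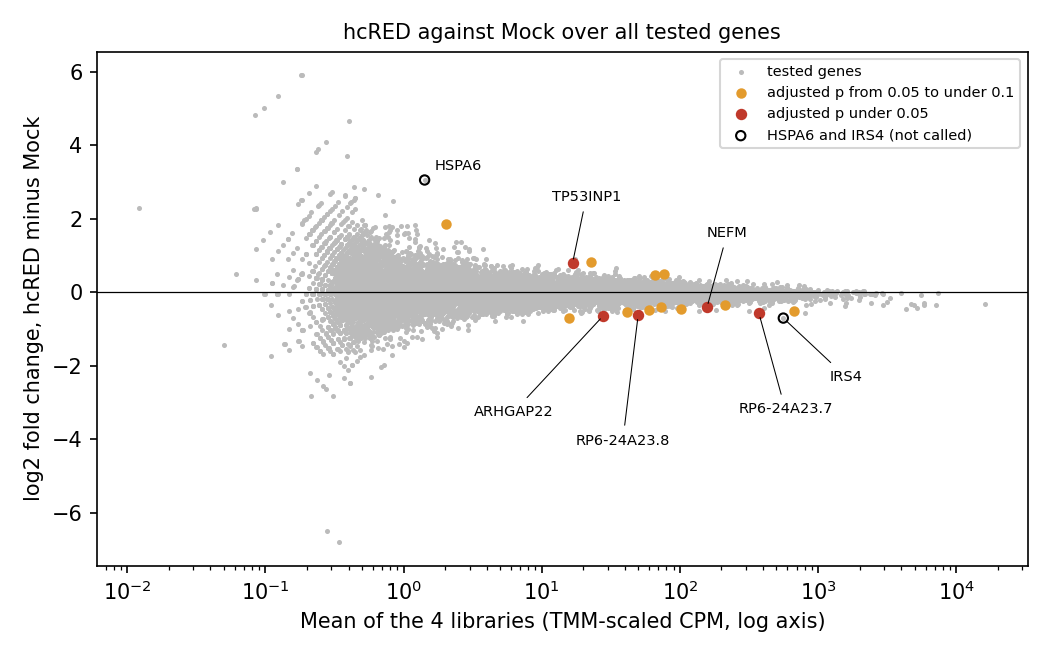
Log2 fold change of hcRED over Mock (vertical axis) against the mean TMM-scaled CPM of the 4 libraries (log axis) for the 16936 tested genes, with the 5 genes at an adjusted p under 0.05 in red, the 11 others under 0.1 in orange, and HSPA6 and IRS4, which were not called, ringed. The called genes lie at means above 10 CPM, and the widest differences belong to genes under 1 CPM.

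The hcRED libraries held 20365834 and 19410607 counts and the Mock libraries 19536244 and 20029269, so depth was alike. Of 58676 genes in the tables, 16936 passed the filter on low counts. No gene ID of the tables stands for hcRED, so its transcript could not be used to check the labels. The HEK293 markers were present, 13 of 14 tested, with a summed level of 644 to 656 CPM in hcRED and 702 to 718 CPM in Mock. The leukocyte genes PTPRC, CD3E, CD3D, MS4A1 and TYROBP, the kidney gene UMOD and the liver and blood genes APOB, TTR, SERPINA1 and HBB had no count in any of the 4 libraries. The labels do not say that replicates came from separate cultures, so the spread behind each p-value may be a technical one. With 2 libraries a side, an exact two-sided permutation test of a single gene cannot go below p = 0.333.

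The libraries did not sort by group. Over the 11038 genes with a mean of at least 5 CPM, the log2 CPM difference between 2 libraries had an SD of 0.176 for the hcRED pair and 0.210 for the Mock pair. Between hcRED and Mock the 4 pairs gave 0.165, 0.212, 0.227 and 0.227. The closest pair of all was hcRED replicate 1 and Mock replicate 2, where 57 genes differed by more than 1.5-fold, against 170 between the Mock libraries. hcRED replicate 3 lay farthest from Mock, with 233 and 223 such genes.

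**Figure D2:**
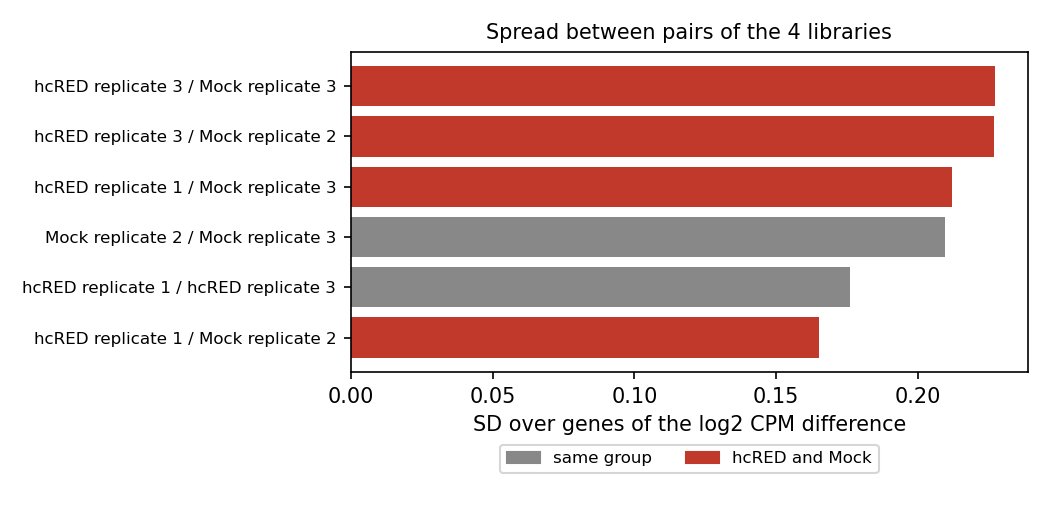
SD over 11038 genes of the log2 CPM difference for each pair of the 4 libraries (horizontal axis), with pairs of 1 group in grey and hcRED with Mock in red. The lowest bar of all, 0.165, is a pair of 1 hcRED and 1 Mock library.

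The depth and the shared spread (biological coefficient of variation 8.06%) set how closely single fold changes could be estimated. Among the 4543 genes with a mean of 50 CPM or more, the 95% interval of the fold change lay within 2-fold in both directions for 99.74% and within 1.5-fold for 98.11%. At 5 to 50 CPM these shares were 98.91% and 84.51%, and for the 2986 genes at 1 to 5 CPM they were 56.13% and 5.928%. Under 1 CPM they were 0.1717% and 0%, so at that level nearly every interval reached 2-fold and a change of that size could be missed. These intervals carry no adjustment for the 16936 tests, so they do not give the size of change that would have been called. The median log2 fold change of all tested genes was 0.00028.

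The pair of called transcripts by IRS4 lay on the minus strand of the X chromosome (hg38), downstream of that gene. IRS4, at chrX:108732482-108736409, encodes an adaptor of insulin and growth factor receptors that is known for its high level in HEK293 cells. RP6-24A23.7 (chrX:108719949-108724944, annotated as sense overlapping) had 429 and 466 TMM-scaled CPM in the Mock libraries and 335 and 265 in the hcRED libraries. It fell by 0.58 ± 0.09 (SE) on the log2 scale, edgeR adjusted p = 0.0182. RP6-24A23.8 (chrX:108725886-108726948, of the annotation class TEC) had 56.7 and 64.5 CPM in Mock and 43.1 and 35.2 in hcRED, and it fell by 0.63 ± 0.11, adjusted p = 0.0360. The groups did not overlap for either transcript, and hcRED replicate 3 was the lower of the hcRED libraries for both. They start 7538 and 5534 bases past the 3′ end of IRS4. IRS4 itself had 662 and 728 CPM in Mock and 496 and 357 in hcRED, a log2 difference of −0.71 ± 0.18 that did not pass the test (adjusted p = 0.299). IRS4 passed without hcRED replicate 1 (−0.96, adjusted p = 0.0206), and its adjusted p ranged from 3.64e-07 to 0.996 over the alternatives. Its antisense transcript IRS4-AS1 was lower in both hcRED libraries than in both Mock libraries, at 3.13 CPM in hcRED replicate 3 and 4.80 in Mock replicate 2 (log2 difference −0.45 ± 0.23, adjusted p = 0.580). RP6-24A23.6, annotated over RP6-24A23.8, part of RP6-24A23.7 and the end of IRS4, had 0 counts in every library. Whether the counting used strand is not given in the sources used here, so reads of these overlapping and antisense genes cannot be told apart. In the 6 kinase libraries RP6-24A23.7 ranged from 354 to 398 CPM, between the hcRED and Mock values.

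ARHGAP22 on chromosome 10 had 32.9 and 35.1 CPM in Mock and 21.2 and 22.3 in hcRED. Libraries within each group lay close together and the groups did not overlap. The gene fell by 0.64 ± 0.10 on the log2 scale, adjusted p = 0.0182. Its kinase libraries held 23.4 to 28.0 CPM, and against the shared Mock libraries the log2 difference was −0.47 ± 0.09 for BRSK1 (adjusted p = 0.0049) and −0.31 ± 0.09 for BRSK2 (adjusted p = 0.0534).

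NEFM on chromosome 8 had 178 and 182 CPM in Mock and 142 and 127 in hcRED, and it fell by 0.42 ± 0.08, adjusted p = 0.0480. NEFM is among the neurofilament genes that HEK293 cells are known to express, and it was the only call among the 13 tested HEK293 markers, whose median was −0.14. The light chain gene NEFL had 78.5 and 86.6 CPM in Mock and 69.8 and 64.4 in hcRED (log2 difference −0.30 ± 0.09, adjusted p = 0.258). In the BRSK2 libraries NEFM lay at 178 to 186 CPM, within or just above the Mock range, and the BRSK2 minus hcRED difference of 0.44 passed its own test (adjusted p = 0.00101). In the BRSK1 libraries it lay at 147 to 164 CPM, between hcRED and Mock.

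TP53INP1 on chromosome 8 had 11.3 and 13.2 CPM in Mock and 20.1 and 22.3 in hcRED. It rose by 0.79 ± 0.14 on the log2 scale, adjusted p = 0.0480, and both hcRED libraries stood above both Mock libraries. The BRSK1 libraries held 16.5 to 22.4 CPM and differed from the shared Mock libraries by 0.72 ± 0.13 (adjusted p = 0.00321). The BRSK2 libraries held 14.2 to 15.5 CPM, and BRSK2 minus hcRED was −0.52 on the log2 scale (adjusted p = 0.0244).

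**Figure D3:**
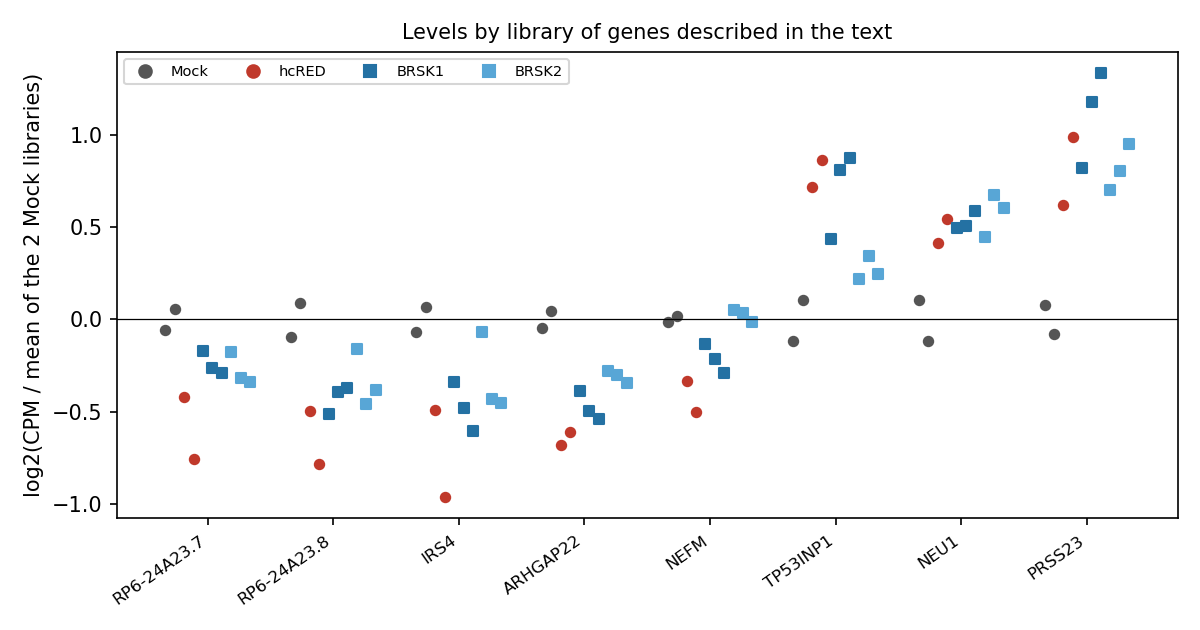
Level of 8 genes in each of the 10 libraries as log2 of the ratio of its CPM to the mean of the 2 Mock libraries, with circles for Mock (grey) and hcRED (red) and squares for BRSK1 and BRSK2 (dark and light blue). RP6-24A23.7, RP6-24A23.8, ARHGAP22 and NEFM lie below 0 in both hcRED libraries and TP53INP1 above 0; IRS4, NEU1 and PRSS23 show the same separation but did not pass the test.

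The 11 genes with an adjusted p from 0.05 to under 0.1 were not called and are given as values. The higher ones were NEU1, the lysosomal sialidase (log2 difference 0.48 ± 0.09), PRSS23, a secreted serine protease (0.81 ± 0.15), IP6K2, an inositol hexakisphosphate kinase (0.47 ± 0.10), and TNXB, the matrix glycoprotein tenascin X (1.84 ± 0.38). NEU1 had 69.0 and 59.2 CPM in Mock and 85.5 and 93.5 in hcRED (adjusted p = 0.0559). TNXB had 0.86 and 0.89 CPM in Mock and 2.40 and 3.92 in hcRED, and its reads are uncertain because part of the gene has a near-identical copy in the pseudogene TNXA. The lower ones included SPEN, a transcriptional repressor that acts with Notch signalling (−0.51 ± 0.10), HEY1, a Notch target repressor (−0.36 ± 0.07), SPRY1, a feedback inhibitor of receptor tyrosine kinase signalling (−0.69 ± 0.14), ADAMTS1, a secreted metalloprotease (−0.47 ± 0.10), and PPARGC1B, a coactivator of mitochondrial genes (−0.54 ± 0.11). LRATD2 (−0.48 ± 0.10) and NDRG1, a hypoxia-responsive gene (−0.41 ± 0.09), complete the set. In every one of the 16 genes both hcRED libraries stood apart from both Mock libraries, as did those of 6824 tested genes (40.3%).

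Some of these genes lay away from BRSK2 cells as well. The BRSK2 minus hcRED difference was 0.35 for HEY1 (adjusted p = 0.00437) and 0.64 for NDRG1 (adjusted p = 4.89e-05). MYC, the growth-promoting transcription factor, had 97.7 and 86.6 CPM in Mock, 73.0 and 56.7 in hcRED and 96.0 to 115 in BRSK2 cells. Its hcRED minus Mock difference of −0.51 ± 0.11 did not pass (adjusted p = 0.134), and its BRSK2 minus hcRED difference of 0.72 did (adjusted p = 0.000443). NEU1 showed the other arrangement: its kinase libraries held 87.1 to 102 CPM, and BRSK1 and BRSK2 against Mock gave 0.53 ± 0.08 (adjusted p = 0.000872) and 0.58 ± 0.08 (adjusted p = 0.000248). For PRSS23 these values were 1.13 ± 0.14 (adjusted p = 0.000351) and 0.82 ± 0.14 (adjusted p = 0.0032). All these contrasts share the Mock or the hcRED libraries.

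The kinase genes themselves were measured in the control cells. BRSK1 had 14.1 and 10.2 CPM in Mock and 17.8 and 27.3 in hcRED (log2 difference 0.89 ± 0.33, adjusted p = 0.507). BRSK2 had 97.7 and 94.4 CPM in Mock and 77.5 and 69.9 in hcRED (−0.38 ± 0.14, adjusted p = 0.424). Neither difference passed the test, though its estimate of spread also used the libraries that overexpress the gene. Without the BRSK2 libraries the edgeR adjusted p of BRSK2 was 0.0866, and without the BRSK1 libraries that of BRSK1 was 0.374. In a fit of the 4 hcRED and Mock libraries it was 0.153 for BRSK2 and 0.241 for BRSK1. With the replicate number as a block it was 0.354 for BRSK2 and 7.54e-06 for BRSK1. In the BRSK2 libraries BRSK1 lay at 20.7 to 29.5 CPM, and in the BRSK1 libraries BRSK2 lay at 75.2 to 87.5 CPM.

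Genes of the antiviral response did not pass the test. Of 40 interferon response genes, 24 were tested and none was called, with a median log2 fold change of 0.01. IFITM3 was higher (0.78 ± 0.30) and IFI6 lower (−0.42 ± 0.16) at an unadjusted p under 0.05, with adjusted p of 0.434 and 0.406. ISG15, a ubiquitin-like protein induced by interferon, had 5.10 and 3.76 CPM in Mock and 4.15 and 6.41 in hcRED, overlapping. IFIT1, which binds viral RNA, had 3.48 and 4.75 CPM in Mock and 3.82 and 2.15 in hcRED, also overlapping. The interferon genes IFNB1 and IFNL1 had 0 counts in all 10 libraries, which in the 4 libraries allows levels of up to 0.147 to 0.155 CPM (3 counts, counting error only). CXCL10, a chemokine gene induced by interferon, had 1 count in all, in a Mock library. Of 13 tested nucleic acid sensors and adaptors none was called. RIGI, the RNA sensor, had 3.63 and 3.42 CPM in Mock and 3.49 and 2.60 in hcRED, and STING1, the adaptor of cytosolic DNA sensing, had 2.02 and 1.68 in Mock and 2.17 and 1.27 in hcRED. CGAS had 16 hcRED and 2 Mock counts and was not tested. Whether these cells can respond to cytosolic DNA at such levels of CGAS and STING1 was not tested either. The median of the interferon list ranged from −0.09 to 0.09 when each of the 4 libraries was left out.

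NF-kB targets were few and low. Of 10 tested, none was called; the median was 0.21, and 3 were higher and 0 lower at an unadjusted p under 0.05. Across all tested genes 4.4% were higher and 4.55% lower at that threshold. TRAF1, a signalling adaptor, had 2.12 and 2.28 CPM in Mock and 3.53 and 4.80 in hcRED (0.92 ± 0.30, adjusted p = 0.327). RELB, an NF-kB subunit, had 3.38 and 4.51 in Mock and 4.99 and 7.98 in hcRED (0.71 ± 0.23, adjusted p = 0.338). Without hcRED replicate 3 the median was 0.04 and none was higher at that threshold. NFKBIA, the inhibitor that NF-kB itself induces, overlapped between the groups, at 16.9 and 14.8 CPM in Mock and 15.7 and 17.1 in hcRED.

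Heat shock genes lay on both sides of 0. Of 29 tested, 16 were above 0 and 13 below, none was called, and the median was 0.02. At an unadjusted p under 0.05, 5 were higher and 1 lower, where 4.4% of all tested genes were higher and 4.55% lower. The co-chaperones BAG3 and DNAJB1 had log2 differences of 0.27 ± 0.10 (adjusted p = 0.396) and 0.21 ± 0.08 (adjusted p = 0.405). HSPA1B, an inducible HSP70 gene, had 708 and 718 CPM in Mock and 619.9 and 569 in hcRED (−0.26 ± 0.09, adjusted p = 0.376). Its near-identical copy HSPA1A was at 0.15 to 0.78 CPM, so the division of reads between the 2 genes is uncertain. HSPA6, another inducible HSP70 gene, was not in the list and is named here after its values were seen. The median and counts of heat shock genes in this paragraph leave it out. HSPA6 had 0.45 and 0.15 CPM in Mock and 1.70 and 3.38 in hcRED. Its log2 difference was 3.05 ± 0.60 (adjusted p = 0.109), and it was 4.04 without Mock replicate 2, 2.46 without Mock replicate 3 and 2.47 without hcRED replicate 3. HSPA6 passed the test without hcRED replicate 1, BRSK1 replicate 1 or BRSK2 replicate 1 (adjusted p of 0.0292, 0.0246 and 0.0249 by edgeR), and its adjusted p ranged from 8.28e-08 to 0.996 over the alternatives. Without hcRED replicate 3, 0 heat shock genes had an unadjusted p under 0.05, and without Mock replicate 3, 1 was higher and 2 lower. The BRSK1 libraries held 3.55 to 7.06 CPM of HSPA6 and the BRSK2 libraries 0.16 to 0.83, and BRSK2 minus hcRED gave −2.43 (adjusted p = 0.0126).

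No gene of the unfolded protein response passed the test, and most of their small differences were above 0. All 26 were tested, with a median log2 fold change of 0.12 and 20 above 0. At an unadjusted p under 0.05, 9 were higher and 0 lower, where 3.65% of genes at 50 CPM or more and 5.16% of those at 5 to 50 CPM were higher. The 9 were the chaperones HSP90B1, HSPA5 and CALR of the endoplasmic reticulum lumen, the co-chaperones DNAJB11 and SDF2L1, the disulphide isomerase PDIA4, the secreted factor MANF, the degradation component DERL2 and the sensor ATF6. HSP90B1 had 454 and 459 CPM in Mock and 529.5 and 568 in hcRED (0.27 ± 0.08, adjusted p = 0.262). HSPA5 had 672 and 681 CPM in Mock and 724 and 816 in hcRED (0.19 ± 0.08, adjusted p = 0.485). In both genes the hcRED libraries stood above the Mock libraries. The largest of the 26 differences was 0.31, for MANF (adjusted p = 0.278), and every interval of the list lay within 2-fold. DNAJB9 and HERPUD1, also targets of the response, overlapped between groups. The median lay between 0.06 and 0.14 when each of the 4 libraries was left out, and without Mock replicate 3 only 3 members were higher at that threshold.

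Promoters of this list were searched for the endoplasmic reticulum stress response element, the binding site known for ATF6 with NF-Y, as CCAAT, any 9 bases and CCACG, on both strands. RefSeq windows (GRCh38.p14) of 250 bases before to 50 after the start matched 23 of the 26 genes. The element was found in 7 of the 23, namely CALR, CANX, CRELD2, HSP90B1, HSPA5, PDIA6 and XBP1, against 25 of 27305 genes in all. By window it was found in 9 of 29 for the list (31.0%) and 27 of 35116 for all genes (0.0769%). The figures for all genes include those of the list. The list was made of known targets of the response that this element serves. Its higher share was therefore built into the choice of genes and is no result about hcRED. A match describes these letters and shows no binding. The median log2 fold change was 0.17 for the 7 genes (range 0.03 to 0.27) and 0.12 for the other 16 (range −0.16 to 0.31). The ranges overlapped, and the difference was not tested. The bases before the start are shown for the 3 chaperone genes among the 9 above, with each element in capitals, 5′ to 3′ along the gene's strand.
HSP90B1, chr12:103930160-103930409, plus strand: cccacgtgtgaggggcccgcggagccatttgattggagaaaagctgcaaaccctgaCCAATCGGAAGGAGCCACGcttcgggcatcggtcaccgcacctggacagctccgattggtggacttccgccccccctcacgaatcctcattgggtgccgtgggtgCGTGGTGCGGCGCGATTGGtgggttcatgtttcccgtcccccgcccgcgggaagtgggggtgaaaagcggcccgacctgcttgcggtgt
HSPA5, chr9:125241344-125241593, minus strand: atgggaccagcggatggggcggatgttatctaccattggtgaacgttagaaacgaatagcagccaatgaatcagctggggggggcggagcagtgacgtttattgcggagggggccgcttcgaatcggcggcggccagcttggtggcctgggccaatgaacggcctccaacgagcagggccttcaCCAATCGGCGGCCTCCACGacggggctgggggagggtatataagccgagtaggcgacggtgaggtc
CALR, chr19:12938359-12938608, plus strand: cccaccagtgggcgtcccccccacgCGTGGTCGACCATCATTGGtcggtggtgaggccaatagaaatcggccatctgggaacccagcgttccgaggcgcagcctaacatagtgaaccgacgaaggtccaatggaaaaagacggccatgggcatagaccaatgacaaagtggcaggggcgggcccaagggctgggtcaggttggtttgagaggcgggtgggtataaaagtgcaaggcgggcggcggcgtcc
The HSP90B1 stretch held 2 elements in opposite orientations, and those of HSPA5 and CALR held 1 each.

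The integrated stress response, in which ATF4 drives amino acid and redox genes, gave no call among 33 tested genes. Its median was 0.02, with 2 higher and 1 lower at an unadjusted p under 0.05, against 4.4% and 4.55% of all tested genes. ATF4 had 679 and 551 CPM in Mock and 635 and 651 in hcRED, overlapping. CHAC1, a glutathione-degrading enzyme, had 5.70 and 5.69 in Mock and 8.53 and 7.88 in hcRED (0.53 ± 0.20, adjusted p = 0.434). DDIT4, a stress-induced inhibitor of mTORC1, had 119.9 and 100.2 in Mock and 94.7 and 68.2 in hcRED (−0.43 ± 0.14, adjusted p = 0.352). NRF2 targets gave no call either among 27 tested (median −0.01, 1 higher and 1 lower at an unadjusted p under 0.05), and the sign of their median turned with library totals as the only scaling, without Mock replicate 2 (0.05) and without hcRED replicate 3 (0.02). The sign of the integrated stress response median turned without Mock replicate 3 (−0.04), hcRED replicate 1 (−0.01) or hcRED replicate 3 (−0.0054), and 1 of its members was called lower without hcRED replicate 1. NQO1, a quinone reductase, had 7.02 and 6.24 CPM in Mock and 5.51 and 7.30 in hcRED. HMOX1, heme oxygenase, had 45.5 and 38.0 in Mock and 44.1 and 52.0 in hcRED. Both overlapped between the groups.

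The p53 list held the call TP53INP1 among 25 tested genes, with a median log2 fold change of 0.16 and 19 above 0. At an unadjusted p under 0.05, 6 were higher and 0 lower: TP53INP1, PHLDA3, CDKN1A, BTG2, AEN and TNFRSF10B. Of all tested genes, 4.4% were higher and 4.55% lower at that threshold. CDKN1A, the cell cycle inhibitor p21, had 38.0 and 41.9 CPM in Mock and 45.6 and 49.9 in hcRED (0.26 ± 0.10, adjusted p = 0.461). MDM2, the ubiquitin ligase of p53, had 103 and 112 in Mock and 102 and 108 in hcRED, overlapping. Without hcRED replicate 3, 1 member was higher at that threshold and the median was 0.09, and without Mock replicate 2, 3 were higher.

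Autophagy and lysosome genes had a median of 0.08 over 33 tested, with 7 higher and 0 lower at that threshold and none called. Of all genes at 50 CPM or more, 3.65% were higher and 8.01% lower at that threshold. At 5 to 50 CPM the shares were 5.16% and 4.8%. The 7 included NEU1, GABARAPL1, an ATG8-family protein of autophagosomes (0.58 ± 0.15, adjusted p = 0.191), and ULK1, the kinase that starts autophagy (0.38 ± 0.12, adjusted p = 0.329). G2 and M phase genes had a median of 0.10 over 36 tested, 32 of them above 0, with 8 higher and 0 lower at that threshold and none called. CCNB1, the mitotic cyclin B1, had 216 and 195 CPM in Mock and 246 and 237 in hcRED (0.23 ± 0.08, adjusted p = 0.342). Without hcRED replicate 3 the autophagy and lysosome list had 2 members higher at that threshold and the G2 and M phase list 2, and without Mock replicate 3 they had 4 each. The G1 and S phase list had a median of −0.05, with 0 higher and 3 lower, and its sign turned with library totals as the only scaling.

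The 13 mRNAs encoded by mitochondrial DNA, which code for subunits of the respiratory chain and ATP synthase, all lay below 0 in hcRED, and none passed the test. Their median log2 fold change was −0.34, and 8 were lower at an unadjusted p under 0.05 against 8.01% of genes at 50 CPM or more. Without Mock replicate 3, 1 member was lower at that threshold, and without hcRED replicate 1, 3 were. In 11 of the 13 both hcRED libraries lay below both Mock libraries, as in 20.3% of all tested genes. MT-ND5, a subunit of complex I, had 4722 and 5342 CPM in Mock and 3676 and 3708 in hcRED (−0.45 ± 0.14, adjusted p = 0.352). MT-ATP6, a subunit of ATP synthase, had 5593 and 5548 in Mock and 4372 and 4329 in hcRED (−0.36 ± 0.12, adjusted p = 0.366). MT-ATP8 and MT-ND4L overlapped between groups, and both share bases with a neighbouring mitochondrial gene. These mRNAs took 6.39% and 6.89% of all counts in Mock and 5.17% and 5.74% in hcRED, with 95% Wilson intervals of at most 0.011 points on either side that cover counting error only. In the kinase libraries the share was 3.61% to 5.25%, so the Mock libraries held the highest shares of the 10. Against the shared Mock libraries MT-ND5 differed by −0.71 ± 0.13 in BRSK1 (adjusted p = 0.00688) and −0.48 ± 0.13 in BRSK2 (adjusted p = 0.0446). In bulk samples, fewer mitochondrial transcripts per cell and a change in other RNA cannot be told apart. The 74 nuclear genes of the respiratory chain had a median of 0.01, with 0 genes called and 0 at an unadjusted p under 0.05 by edgeR.

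**Figure D4:**
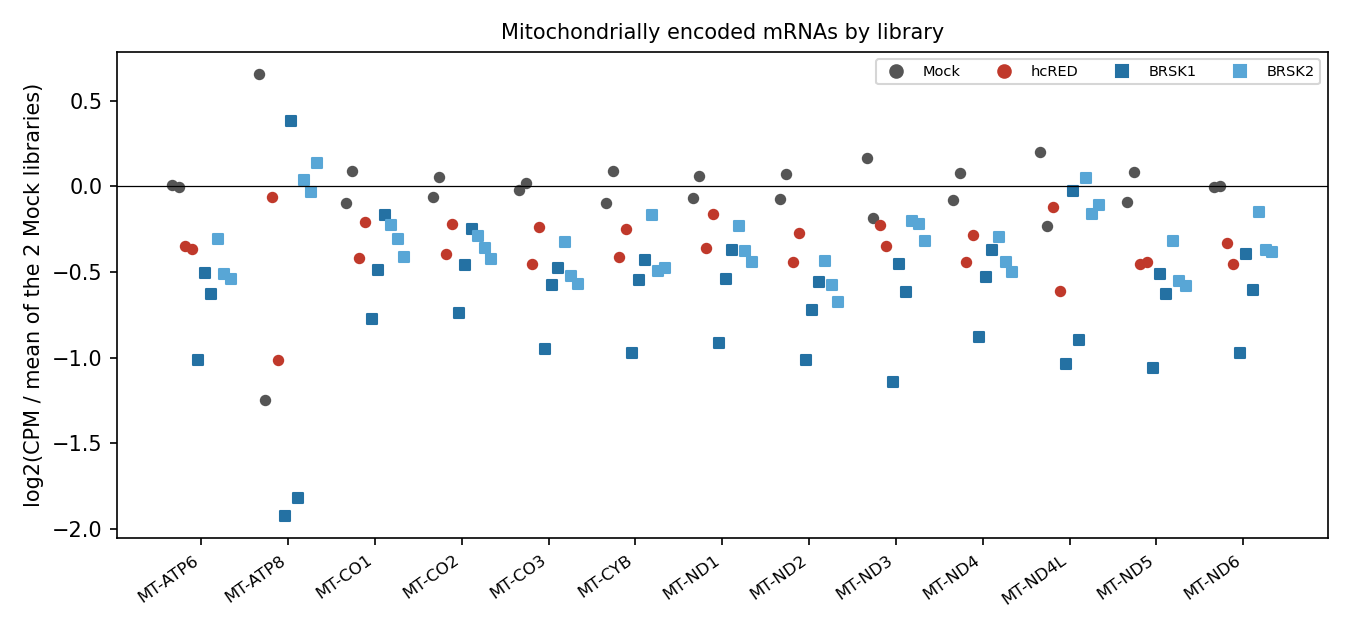
Level of the 13 mitochondrially encoded mRNAs in each of the 10 libraries as log2 of the ratio of CPM to the mean of the 2 Mock libraries, with circles for Mock (grey) and hcRED (red) and squares for BRSK1 and BRSK2 (dark and light blue). Both hcRED libraries lie below both Mock libraries for 11 of the 13, and MT-ATP8 and MT-ND4L overlap.

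Lists of growth and sugar metabolism lay below 0, with no call. Of 31 glycolysis and hypoxia genes, 27 were below 0, the median was −0.15, and 0 were higher and 8 lower at an unadjusted p under 0.05. At that threshold 8.01% of all genes at 50 CPM or more were lower and 3.65% higher. HK2, the inducible hexokinase, had 163 and 159 CPM in Mock and 126 and 97.7 in hcRED (−0.52 ± 0.13, adjusted p = 0.213). LDHA, lactate dehydrogenase A, had 997 and 1059.7 in Mock and 911 and 829 in hcRED (−0.24 ± 0.09, adjusted p = 0.428). In both genes hcRED replicate 3 was the lowest of the 4 libraries. Of 30 ribosome biogenesis genes including MYC, 26 were below 0, the median was −0.13, and 0 were higher and 7 lower. POLR1B, a subunit of RNA polymerase I, had 109 and 117 CPM in Mock and 92.6 and 89.8 in hcRED (−0.31 ± 0.09, adjusted p = 0.262). Of 30 cholesterol and fatty acid synthesis genes, 22 were below 0, the median was −0.05, and 1 was higher and 7 lower. FASN, fatty acid synthase, had 1296 and 1398 CPM in Mock and 1124 and 1055 in hcRED (−0.31 ± 0.09, adjusted p = 0.289). The mean log2 deviation of the glycolysis list from the mean of the 4 libraries was −0.19 in hcRED replicate 3 and 0.05 in hcRED replicate 1, and 0.13 and 0.01 in Mock, so the hcRED libraries lay on opposite sides of that mean. Without hcRED replicate 3 the glycolysis list had a median of −0.06 and 3 members lower, the ribosome biogenesis list −0.09 and 3, and the cholesterol list −0.02 and 3. Without hcRED replicate 1 their medians were −0.22, −0.22 and −0.12, and 2 glycolysis genes and 1 ribosome biogenesis gene were called lower. The 78 cytosolic ribosomal protein genes had a median of −0.001, with 0 genes called and 0 at an unadjusted p under 0.05 by edgeR.

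**Figure D5:**
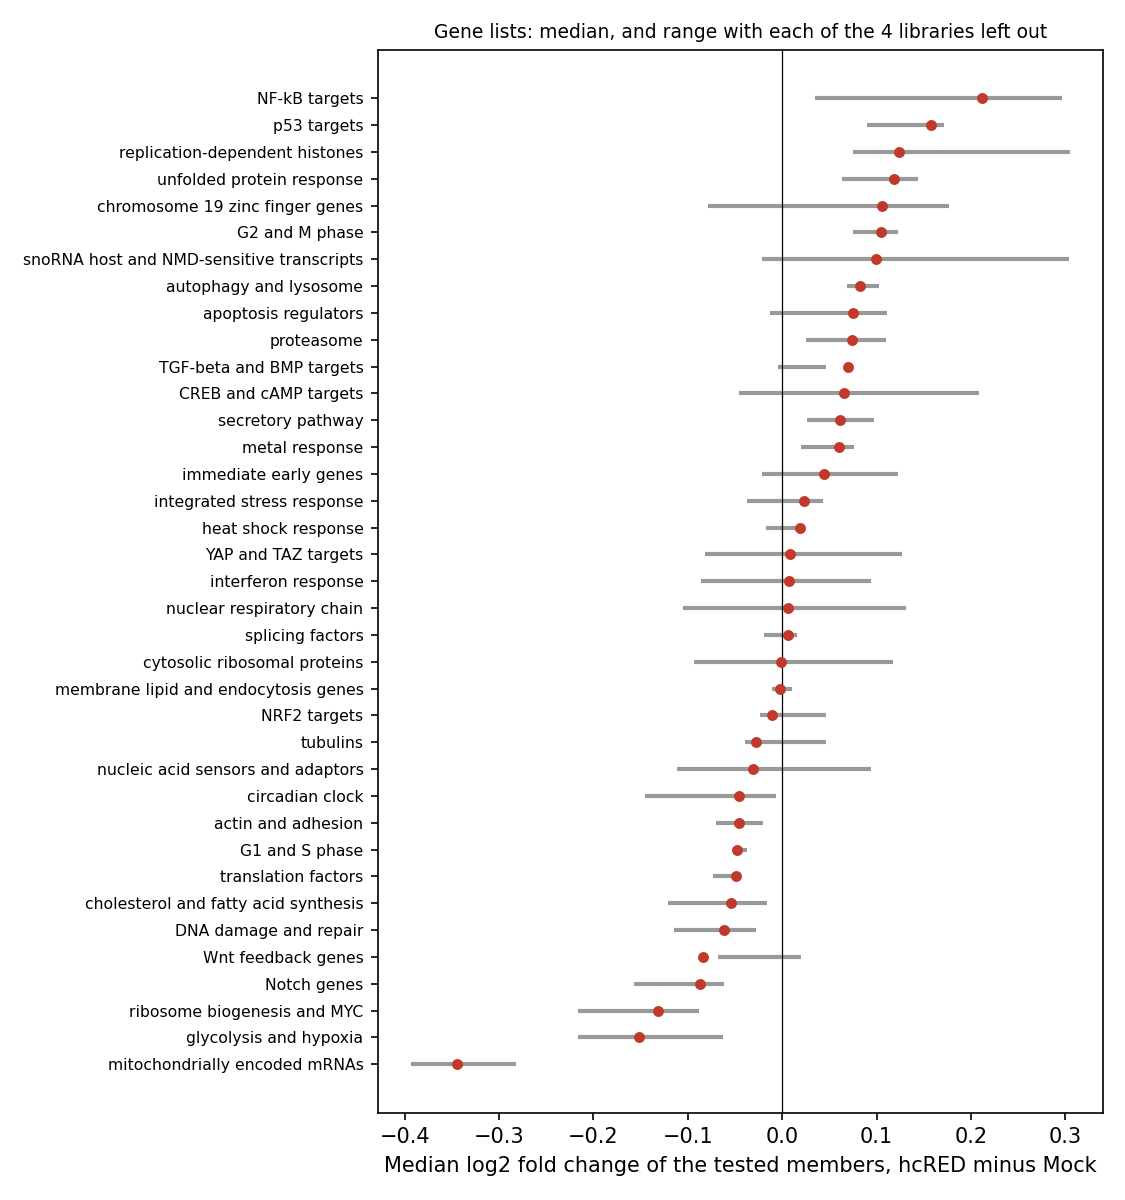
Median log2 fold change of the tested members of 37 gene lists, hcRED minus Mock (red points), with grey lines for the range of the median when each of the 4 libraries is left out in turn. The lists run from −0.34 for the mitochondrially encoded mRNAs to 0.21 for NF-kB targets, and many lines cross 0.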

How the data were processed

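The data are RNA-seq of hcRED, BRSK1 and BRSK2 cells at 24 h and of mock cells. The build hg38 and the tools STAR, limma and edgeR are listed per the submitters' processing notes. None of the counting program, its use of strand, the gene annotation and the tool versions is given in the sources used here. Raw counts per gene were deposited by the authors in a table for each kinase, joined here into 10 libraries after 0 differences were found between the shared control columns. The authors' normalized and tested values were not used.

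Counts were tested with edgeR 4.0.16 in R 4.3.3: TMM factors, filterByExpr (minimum count 10, minimum total 15), and a robust quasi-likelihood fit with 4 group means. Benjamini-Hochberg adjustment ran over 16936 genes, with a threshold of 0.05. The SE is the absolute log2 fold change over the square root of F. Levels are CPM scaled by TMM factors, except the summed marker levels, which use library totals, and log2 CPM used a prior count of 2. Libraries are called apart where both values of a group lie outside the range of the other's. Steps were tested on simulated data.

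The samples, the 44 gene lists (1136 symbols, 3 without a gene) and the tests were chosen with earlier results of these data known. Named genes are the called genes, the 10 with the smallest p, the 6 highest and 6 lowest with libraries apart and at least 5 CPM, BRSK1 and BRSK2, up to 4 members of each list, and a set of stress genes. Genes with an adjusted p under 0.1, and HSPA6, IRS4 and its neighbours, were named after their values were seen, as were further list members past an unadjusted p of 0.05. Symbols are current ones (LRATD2 is FAM84B and IRS4-AS1 is RP6-24A23.3 in the tables). Positions of genes are those of GENCODE on hg38.

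Alternatives were other scalings, filters and tools (DESeq2 1.42.0, limma-voom with limma 3.58.1), a replicate block, smaller fits, each library left out, other thresholds, and removal of GC content and length trends (lowess, span 0.3). List counts with each of the 4 libraries left out were added after the data were seen. A library left alone in its group was taken to vary as the other groups do. Figures used matplotlib 3.10.9.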

Additional observations from a re-analysis of the deposited data

How the results depend on the processing

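The 5 calls (1 higher, 4 lower) were also made with RLE factors, with upper quartile factors and with both kinase genes excluded from the scaling. Library totals alone moved the median of all genes to 0.05 and gave 7 calls, 4 of them higher. No filter gave 128 calls (52 higher, 76 lower) over 33654 genes, and a filter of 1 CPM in 2 libraries gave 3 (0 higher). DESeq2 called 54 (19 higher, 35 lower), limma-voom 3 (0 higher) and edgeR without robust estimation 0 (0 higher, 0 lower; 1498 genes at an unadjusted p under 0.05). A fit of the 4 libraries called 0 (0 higher, 0 lower), one without the BRSK2 libraries 11 (3 higher, 8 lower) and one without the BRSK1 libraries 4 (2 higher, 2 lower). Leaving out single libraries gave 0 to 49 calls, 0 to 20 higher and 0 to 29 lower. Removing GC content trends gave 6 calls (2 higher), and removing GC content and length trends gave 16 (4 higher, 12 lower), with all 5 genes kept in both. At an adjusted p under 0.01 there were 0 calls (0 higher, 0 lower), and under 0.1 there were 16 (5 higher, 11 lower). The causes of these differences were not tested.

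With the replicate number as a block, 434 genes were called (148 higher, 286 lower), all 5 among them. The labels do not say whether a number marks a shared batch, and hcRED and Mock share a single number. Deviations from group means of same-numbered libraries correlated at −0.0511 to 0.161 over 12 pairs, with 2 pairs over 0.1. Over 25 pairs of different number the range was −0.14 to 0.1, with 0 pairs over 0.1. In a group of 2 libraries the deviations are mirror images, so each value for such a library recurs with its sign turned. BRSK1 replicate 2 gave 0.14 with Mock replicate 2 and −0.14 with Mock replicate 3. The 2 ranges are therefore not independent of each other. Whether the block fits these data better was not tested. Values of single genes were compared for 27 genes, all but BRSK1 and BRSK2 picked by their values in these data. Such a choice leaves little room for a reversal, so the lack of reversals is no support. Of these values under the alternatives, 580 kept their direction and their side of the threshold. Another 93 passed it only there, 47 no longer passed it and none reversed. A further 36 had no adjusted p, 27 from the number 3 libraries alone and 9 from DESeq2, and kept their direction. RP6-24A23.7 was called in 21 of 25 alternatives, ARHGAP22 in 20, RP6-24A23.8 in 17, TP53INP1 in 13 and NEFM in 12. IRS4 was called with the block and without hcRED replicate 1. Depth limits genes under 1 CPM most.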

Other observations

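Of the 5 called genes, TP53INP1 and NEFM lie on chromosome 8, as do HEY1, LRATD2, NDRG1 and MYC. Chromosome 8 held 372 of the 11038 genes with a mean of at least 5 CPM (3.37%). Of these 372, 40 were lower (10.8%) and 11 higher (2.96%) at an unadjusted p under 0.05, where 6.12% of the 11038 were lower and 4.54% higher and the share lower ranged from 3.89% to 10.9% between chromosomes. The median log2 fold change of chromosome 8 was −0.011, within the range of −0.0332 to 0.0161 over the autosomes and the X chromosome. Across the 11038 genes, the log2 fold change correlated with log2 transcript length at r = −0.167 and with GC content at r = −0.0566, a description across genes, which are not independent replicates. At 50 CPM or more, 8.01% of genes were lower and 3.65% higher at an unadjusted p under 0.05, and at 5 to 50 CPM these shares were 4.8% and 5.16%.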
